A study of Mus musculus with 2 samples.

Results

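The 10 genes described here encode microtubule-associated proteins and stathmins: Map1a, Map1b, Map2, Map4, Mapt, Dcx, Dclk1, Stmn1, Stmn2 and Stmn3. They were chosen by name for their role and not by a cutoff on measured values, and all 10 were found among the 43346 mouse genes of the deposited tables, with 64 of the 103639 mouse transcripts. The tissue was neural tube, from which brain and spinal cord form, taken from healthy B6NCrl mouse embryos at embryonic day 13.5, with male and female embryos pooled. There was 1 group of 2 libraries, biological replicate 2 and biological replicate 1, each made from 10 ng of total RNA with spike-in RNA added. The labels give both libraries the same donor record, so the spread between them may not be that between separate litters. With no second group, no test between conditions was possible, and the libraries were set beside each other by fold only.

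Microtubules are polymers of tubulin that fill the axons and dendrites of growing neurons and carry the nucleus of a migrating neuron forward. Microtubule-associated proteins such as tau and MAP2 bind along the polymer and stabilise it, doublecortin stabilises it in migrating neurons, and stathmins bind free tubulin and promote shrinkage. Several of these genes are known to switch isoforms between fetal and adult brain, so the transcripts were read as well as the genes.

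Replicate 2 held 22311849 estimated reads and replicate 1 held 34125110, of which 21084234 and 32151162 lay on mouse genes. The 10 genes took 260385 reads in replicate 2, or 1.235% of gene reads (95% Wilson interval 1.230 to 1.240), and 401816 reads in replicate 1, or 1.2498% (1.246 to 1.254). These intervals cover counting error only. Levels are given in TPM, a measure per transcript length scaled to a fixed sum in each library. Marker lists are given with the genes at 1 TPM or more in both libraries. Neuronal markers (5 of 5) summed to 2582 TPM in replicate 2, against 2682 TPM in replicate 1. Neural progenitor markers (5 of 5) summed to 2739 and 2845 TPM in the same order. Fabp7 (mean 1997 TPM) and Vim (734 TPM) led that sum, above Nes (34.0 TPM), Sox2 (14.6 TPM) and Pax6 (12.3 TPM). Markers of both cell types were thus detected, and the part of other cells in these sums was not tested. Markers of dividing cells (4 of 4) had a sum of 239.62 TPM in replicate 2, against 189.01 TPM in replicate 1, with a median log2 ratio of 0.42; all 4 were higher in replicate 2, and Mki67 was past 1.5-fold. Stmn1, which dividing cells also use, differed by 1.01-fold, and the part of dividing cells in its level was not tested. Of the glial markers 3 of 5 reached 1 TPM in both libraries, with a sum of 45.2 TPM in replicate 2, against 49.7 TPM in replicate 1. Astrocyte genes were near absent, with Gfap at 0.08 TPM in replicate 2 and 0.17 TPM in replicate 1. Genes of other tissues were present too. In replicate 2 the muscle markers (3 of 3) summed to 94.7 TPM, against 33.0 TPM in replicate 1, and all 3 were past 1.5-fold. Sensory ganglion markers (4 of 4) had a median log2 ratio of -0.47. Avil was past 1.5-fold, lower in replicate 2, while Pou4f1 alone was higher there, at 1.05-fold. Together these markers summed to 503 TPM in replicate 2, against 646 TPM in replicate 1. In the same order, mesenchyme markers (3 of 3) had 585 and 560 TPM, endothelial markers (2 of 2) 88.6 and 90.5 TPM, and red blood cell markers (2 of 2) 4853 and 4568 TPM. Neurons of sensory ganglia use many of the genes described here as well, and the part of such cells in the levels was not tested. In bulk tissue, fewer cells of a type and less RNA per cell cannot be told apart.

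Together the 10 genes held 8073.75 TPM in replicate 2 and 8071.01 TPM in replicate 1, a mean of 8072 ± 1.94 TPM (SD, n = 2). Opposite shifts cancelled in this sum. The SD was 76.0 TPM for the stathmins, lower in replicate 2, and 78.0 TPM for the other members, higher there. All 10 reached 1 TPM in both libraries, a level that 13263 of 21474 protein-coding genes (61.8%) reached. At 100 TPM in both libraries there were 8 of the 10, all but Dclk1 and Map1a, beside 1436 protein-coding genes, or 6.69%. The median of the 10 mean levels was 394 TPM, and the median over all protein-coding genes was 4.97 TPM. These levels describe genes that were named for their role, and none of them was tested.

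**Figure D1:**
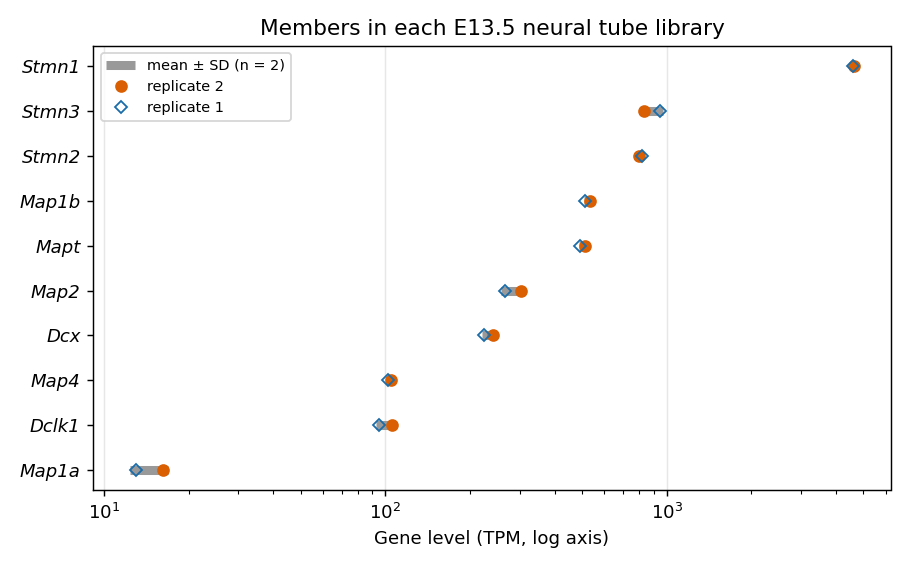
Levels of the 10 genes in each library (x axis, TPM, log scale), ordered by mean. Filled circles are replicate 2, open diamonds replicate 1, and grey bars the mean ± SD (n = 2). Stmn1 (4615 TPM on average) stands at the top and Map1a (14.6 TPM) at the bottom in both libraries, and the ranges of Map1b and Mapt and of Map4 and Dclk1 overlap.

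The levels ran in one order of mean TPM from Stmn1 through Stmn3, Stmn2, Map1b, Mapt, Map2, Dcx, Map4 and Dclk1 to Map1a. For 2 of the neighbouring pairs the ranges over the libraries overlapped. Those pairs were Map1b with Mapt, and Map4 with Dclk1. Within each library Map1b was the higher of its pair, by 1.04-fold in both. Map4 was 0.990 of the Dclk1 level in replicate 2 and 1.08 of it in replicate 1, so the order of these 2 genes turned between the libraries. The other 7 neighbouring pairs did not overlap, although Stmn3 exceeded Stmn2 by as little as 1.04-fold in replicate 2 and 1.16-fold in replicate 1.

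The stathmins were the most abundant of the group. These small proteins each bind tubulin dimers through a shared stathmin-like domain. Stmn1 encodes the soluble form found in dividing cells and neurons, while Stmn2 (SCG10) and Stmn3 (SCLIP) encode neuronal forms that carry a membrane anchor. The shared domain can be seen in the DNA. A coding exon of 192 nucleotides has the same length in all 3 genes, and its bases are shown here 5′ to 3′ on the coding strand, from GENCODE M21 transcripts on mm10, with capitals for bases that are identical in all 3.
Stmn1 exon, chr4:134472804-134472995, plus strand: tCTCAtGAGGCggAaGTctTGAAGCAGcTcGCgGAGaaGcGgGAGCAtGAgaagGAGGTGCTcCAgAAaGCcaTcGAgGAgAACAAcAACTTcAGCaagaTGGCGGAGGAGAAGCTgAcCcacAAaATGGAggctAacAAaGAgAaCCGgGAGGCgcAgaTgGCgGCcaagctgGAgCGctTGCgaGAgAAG
Stmn2 exon, chr3:8554792-8554983, plus strand: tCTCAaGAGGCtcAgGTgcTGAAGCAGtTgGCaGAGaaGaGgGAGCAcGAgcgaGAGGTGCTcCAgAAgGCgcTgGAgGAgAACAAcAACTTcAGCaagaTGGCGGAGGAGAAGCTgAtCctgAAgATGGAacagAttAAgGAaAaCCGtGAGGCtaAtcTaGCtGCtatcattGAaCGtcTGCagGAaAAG
Stmn3 exon, chr2:181307216-181307407, minus strand: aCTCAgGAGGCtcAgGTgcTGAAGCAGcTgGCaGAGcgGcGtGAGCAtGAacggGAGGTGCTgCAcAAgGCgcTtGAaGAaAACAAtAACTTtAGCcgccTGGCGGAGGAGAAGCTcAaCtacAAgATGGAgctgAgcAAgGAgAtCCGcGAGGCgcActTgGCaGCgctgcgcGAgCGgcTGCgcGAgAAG
All 3 exons had the same base at 124 of 192 positions, or 64.6%. Stmn1 and Stmn2 matched at 144 positions (75%), Stmn1 and Stmn3 at 141 (73.4%), and Stmn2 and Stmn3 at 142 (74.0%). The differences are spread along the exon, and reads were divided between these genes with little doubt: the posterior SD of the Stmn1 count was 0.0371% of the count in replicate 2 and 0.0280% in replicate 1, and that of Stmn2 and Stmn3 was 0 in both.

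Stmn1 (ENSMUSG00000028832.7, chromosome 4, 134468320 to 134473843) had 4631.30 TPM from 63534 reads in replicate 2 and 4599.24 TPM from 99628 reads in replicate 1, a mean of 4615 ± 22.7 TPM (SD, n = 2). It ranked 7 among protein-coding genes by mean level. The 2 libraries differed by 1.01-fold. Nearly all of it was 1 transcript, ENSMUST00000030636, with a coding sequence of 447 nucleotides and an isoform percent, the transcript's share of its gene's TPM, of 98.72 in replicate 2 and 98.91 in replicate 1. The gene Gm23634, annotated inside it on the same strand, had 0 TPM in both libraries.

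Stmn3 (ENSMUSG00000027581.12, chromosome 2, 181306459 to 181314500) had 830.32 TPM from 12340 reads in replicate 2 and 946.72 TPM from 22200 reads in replicate 1, a mean of 889 ± 82.3 TPM and rank 75. Its fold of replicate 2 over replicate 1 was 0.877, the lowest of the 10 genes. Stmn2 (ENSMUSG00000027500.10, chromosome 3, 8509360 to 8561606) had 794.88 TPM from 22271 reads in replicate 2 and 818.07 TPM from 36152 reads in replicate 1, a mean of 806 ± 16.4 TPM and rank 89. Stmn3 is thus higher per length while Stmn2, whose effective length is greater, collected more reads. Each had a single transcript of note. For Stmn2 it was ENSMUST00000029002, with a coding sequence of 537 nucleotides and an isoform percent of 97.36 in replicate 2 and 97.61 in replicate 1. For Stmn3, ENSMUST00000103045, coding for 540 nucleotides, was the only annotated transcript.

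Per length, Stmn1 exceeded Stmn2 by 5.83-fold in replicate 2 and 5.62-fold in replicate 1, and Stmn3 by 5.58-fold and 4.86-fold in the same order. The 3 stathmins summed to 6256.5 TPM in replicate 2, against 6364.03 TPM in replicate 1, which was 77.5% and 78.9% of the TPM of all 10 genes. The other 7 genes summed to 1817.25 TPM in replicate 2, against 1706.98 TPM in replicate 1. A further stathmin, Stmn4, is no member of the group but had 291.93 TPM in replicate 2 and 331.08 TPM in replicate 1, so it was below Stmn2 and Stmn3 in both libraries.

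**Figure D2:**
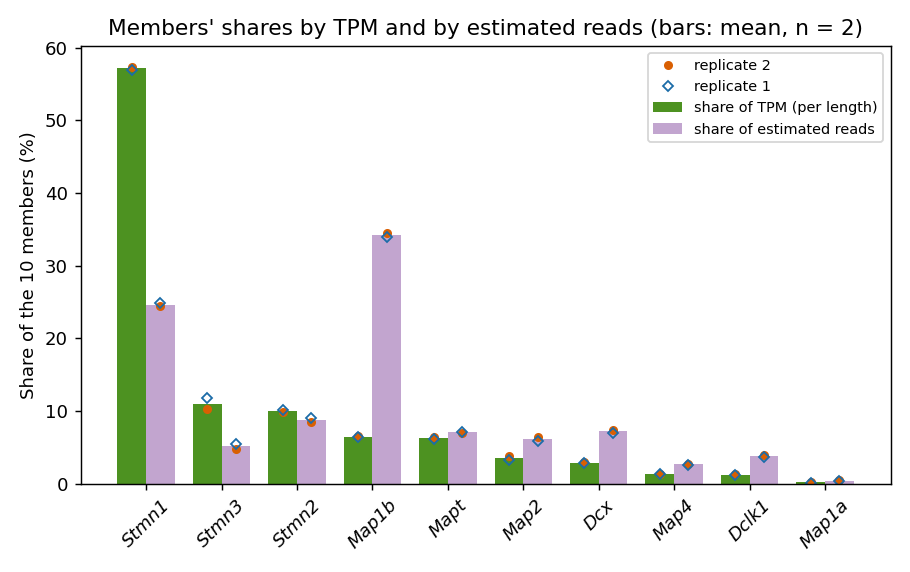
Share of each gene in the 10 genes' summed TPM (green bars) and in their summed estimated reads (violet bars), in percent. Bars are means of the 2 libraries, filled circles replicate 2 and open diamonds replicate 1. Stmn1 leads by TPM and Map1b by reads.

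The MAP1 proteins are long filamentous proteins cleaved into a heavy and a light chain. MAP1B is the early form, prominent in growing axons, and MAP1A is the form that becomes abundant in mature neurons and their dendrites. Map1b (ENSMUSG00000052727.5, chromosome 13, 99421446 to 99516540) had 533.14 TPM from 89800 reads in replicate 2 and 513.89 TPM from 136574 reads in replicate 1, a mean of 524 ± 13.6 TPM and rank 180. Its transcript is long, so it held 34.5% of the 10 genes' reads in replicate 2 and 34.0% in replicate 1, but 6.60% and 6.37% of their TPM. Stmn1, the highest per length, held 24.4% of the reads in replicate 2 and 24.8% in replicate 1. The annotation that was quantified holds a single transcript of Map1b, ENSMUST00000064762, against 6 in M21, and it carries the whole level. Its coding sequence in GENCODE M21 is 7392 nucleotides.

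Map1a (ENSMUSG00000027254.9, chromosome 2, 121289600 to 121310832) was the lowest of the 10, with 16.24 TPM from 1167 reads in replicate 2 and 13.01 TPM from 1692 reads in replicate 1, a mean of 14.6 ± 2.28 TPM and rank 7500. By gene TPM Map1b exceeded it by 32.8-fold in replicate 2 and 39.5-fold in replicate 1. The gene level of Map1a is not the level of its protein-coding mRNA. A noncoding transcript of 411 nucleotides, ENSMUST00000133283, had 7.89 TPM in replicate 2 and 5.70 TPM in replicate 1, an isoform percent of 48.62 and 43.76, from 35.30 and 40.18 estimated reads. The transcripts with the complete coding sequences were ENSMUST00000094639 (9042 coding nucleotides), at 3.79 TPM in replicate 2 and 3.55 TPM in replicate 1, and ENSMUST00000110639 (8328 coding nucleotides), at 3.39 and 3.11 TPM. They summed to 7.18 TPM in replicate 2, against 6.66 TPM in replicate 1. The Map1b transcript, with a complete coding sequence, had 533.14 and 513.89 TPM in the same order. By coding transcripts the gap between Map1b and Map1a was thus wider than by gene TPM. By reads the complete Map1a transcripts held nearly the whole gene. Their share of reads was 96.5% in replicate 2 and 97.3% in replicate 1, but their share of TPM was 44.2% and 51.2%. A second noncoding transcript, ENSMUST00000131901, had 1.16 TPM in replicate 2 and 0.66 TPM in replicate 1, from 5.95 and 5.38 reads. Map1a overlaps Ppip5k1 on the opposite strand, which had 12.34 TPM in replicate 2 and 12.98 TPM in replicate 1, and the handling of strand is not stated, so reads of the 2 genes may be mixed where they overlap.

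MAP2, tau and MAP4 form a family with a shared microtubule-binding end built of imperfect repeats. MAP2 is the classical protein of dendrites, tau (gene Mapt) of axons, and MAP4 the member made in most cell types. In each gene 1 of the repeats is encoded by a 93-nucleotide exon. In tau and MAP2 this exon is known to be left out of much of the mRNA early in development, giving proteins with fewer repeats. The exon is shown from Map2 and Map4, 5′ to 3′ on the coding strand, with capitals for bases identical in both (GENCODE M21 transcripts on mm10), because the share of Map2 mRNA that holds it is given further on.
Map2 exon, chr1:66431527-66431619, plus strand: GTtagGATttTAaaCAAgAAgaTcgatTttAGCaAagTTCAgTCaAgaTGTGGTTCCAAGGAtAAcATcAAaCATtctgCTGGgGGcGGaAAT
Map4 exon, chr9:110072613-110072705, plus strand: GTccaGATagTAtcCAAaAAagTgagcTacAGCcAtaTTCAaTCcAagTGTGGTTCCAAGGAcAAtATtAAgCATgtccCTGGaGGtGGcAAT
The Map2 and Map4 exons had the same base at 59 of 93 positions (63.4%).

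Mapt (ENSMUSG00000018411.13, chromosome 11, 104231390 to 104332090) had 513.93 TPM from 18114 reads in replicate 2 and 492.68 TPM from 28706 reads in replicate 1, a mean of 503 ± 15.03 TPM and rank 189. Map2 (ENSMUSG00000015222.13, chromosome 1, 66175273 to 66442583) had 303.64 TPM from 16802 reads in replicate 2 and 265.80 TPM from 23432 reads in replicate 1, a mean of 285 ± 26.8 TPM and rank 433. By gene TPM Mapt exceeded Map2 by 1.69-fold in replicate 2 and 1.85-fold in replicate 1. Transcripts with a complete coding sequence had 469.35 TPM for Mapt and 187.19 TPM for Map2 in replicate 2. In replicate 1 they had 460.99 and 165.26 TPM. Map4 (ENSMUSG00000032479.11, chromosome 9, 109931460 to 110083955) had 104.38 TPM from 6939.91 reads in replicate 2 and 102.05 TPM from 10586.4 reads in replicate 1, a mean of 103 ± 1.65 TPM and rank 1438. Relative to its level it had the smallest SD of the 10 after Stmn1. Map2 overlaps Gm10558 on the opposite strand, which had 18.14 TPM in replicate 2 and 19.17 TPM in replicate 1. As for Map1a, reads of these genes may be mixed where they overlap.

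For tau, the deposited transcripts show part of the amino-terminal choices but not the repeat choice. The fetal form of tau lacks a pair of amino-terminal insert exons of 87 nucleotides each as well as the repeat exon. Of the transcripts that span them, those with the first insert exon (chromosome 11, 104287123 to 104287209) held 9.81% of the TPM in replicate 2 and 14.7% in replicate 1, a mean of 12.3 ± 3.45% (SD, n = 2). Those with the second insert exon (104289908 to 104289994) held 9.58% in replicate 2 and 14.5% in replicate 1, a mean of 12.02 ± 3.46%. Most tau mRNA in both libraries was therefore assigned to transcripts without either insert. The repeat exon, by contrast, was in 6 of the 6 transcripts of the tables that span it, and its share was 100% in both libraries. GENCODE M21 likewise has 6 spanning transcripts and 0 that skip it. This 100% is fixed by the annotation that was quantified, and the tables cannot show how much tau mRNA left the exon out.

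The tau transcript of highest TPM was ENSMUST00000106993, with 266.57 TPM in replicate 2 and 231.37 TPM in replicate 1, an isoform percent of 51.87 and 46.96. It lacks both inserts and holds a coding exon of 54 nucleotides (chr11:104307881-104307934, plus strand), shown because, of the spanning transcripts, the most abundant is the only one to hold it.
Mapt exon of 54 nucleotides: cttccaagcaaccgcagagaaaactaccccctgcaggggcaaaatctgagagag
ENSMUST00000106992 lacks this exon and both inserts and had 154.55 TPM in replicate 2 and 160.82 TPM in replicate 1, an isoform percent of 30.07 and 32.64. ENSMUST00000100347, with both inserts and without the 54-nucleotide exon, had 46.23 TPM in replicate 2 and 64.23 TPM in replicate 1, an isoform percent of 9.00 and 13.04. Over the 5 spanning transcripts, the 54-nucleotide exon was held by 56.8% of the TPM in replicate 2 and 50.2% in replicate 1, a mean of 53.5 ± 4.67%. These transcripts differ in more than the exon. In M21 the 3′ untranslated region is 248 nucleotides in ENSMUST00000106993, 3903 in ENSMUST00000106992 and 32 in ENSMUST00000100347. By reads the order turned: ENSMUST00000106992 had 11415.9 estimated reads in replicate 2 and 18742.6 in replicate 1, and ENSMUST00000106993 had 5455.45 and 7471.05. The part of the differing 3′ ends in the split of TPM was not tested. The form with a coding exon of 759 nucleotides, ENSMUST00000106989, known as big tau of peripheral neurons, had 2.00 TPM in replicate 2 and 4.57 TPM in replicate 1.

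For Map2, forms without the large central exon predominated. That exon, of 3741 nucleotides (chromosome 1, 66412407 to 66416147), encodes the projection arm of the high-molecular-weight protein, and the forms without it are the low-molecular-weight MAP2 known from immature neurons. The single transcript with the full exon, ENSMUST00000114013, had 35.77 TPM in replicate 2, against 25.19 TPM in replicate 1. The spanning transcripts without it summed to 152.26 TPM in replicate 2, against 141.03 TPM in replicate 1. The share with the exon was 19.0% in replicate 2 and 15.2% in replicate 1, a mean of 17.1 ± 2.74% (SD, n = 2). The 3′ ends differ here as well, with 181 nucleotides after the stop codon in ENSMUST00000114013 and 3574 in ENSMUST00000024639, and their part in the split was not tested.

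ENSMUST00000024639, with 1401 coding nucleotides and no large exon, was the highest Map2 transcript, at 123.63 TPM in replicate 2 and 116.62 TPM in replicate 1. ENSMUST00000114015, with a coding sequence of the same length, had 20.38 TPM in replicate 2, against 18.98 TPM in replicate 1. The repeat exon of Map2 was rare: the 4 of 11 spanning transcripts that hold it had 1.74% of the TPM in replicate 2 and 1.58% in replicate 1, a mean of 1.66 ± 0.119%. Unlike in Mapt, this annotation holds forms with and without the exon, so the share is not fixed by the annotation. The ENSMUST00000114018 transcript, which has the exon, stood at 3.29 TPM in replicate 2 and 2.46 TPM in replicate 1, with a posterior SD of 30.0% and 29.3% of its estimated count. Transcripts with a complete coding sequence held 61.6% of Map2 TPM in replicate 2 and 62.2% in replicate 1. Much of the rest was a 546-nucleotide fragment of the 5′ end, ENSMUST00000156636, at 57.39 TPM in replicate 2 and 43.38 TPM in replicate 1, and a retained-intron transcript, ENSMUST00000128673, at 33.74 and 32.08 TPM.

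**Figure D3:**
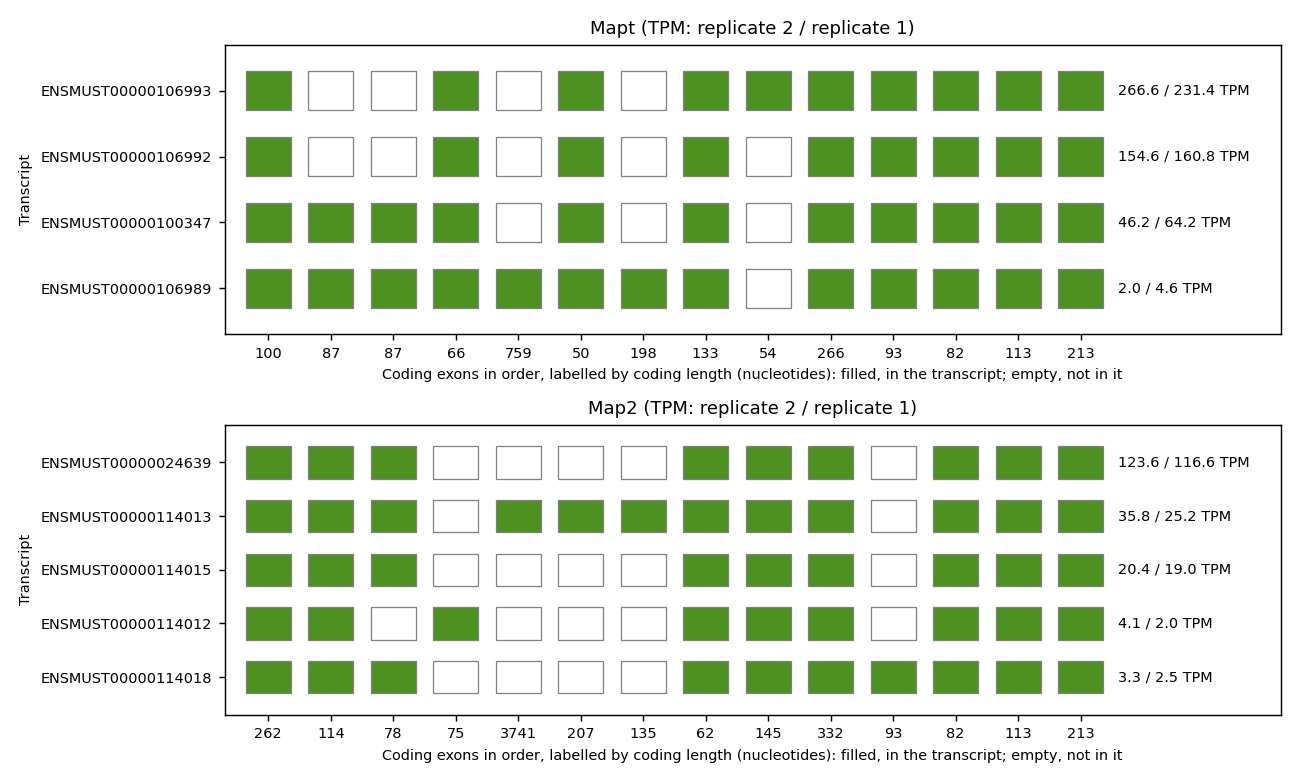
Coding exons of Mapt (top) and Map2 (bottom) transcripts with a complete coding sequence and a mean isoform percent of 0.5 or more. Each column is a coding exon in order, labelled by its length in nucleotides, filled where the transcript holds it. TPM stands at the right, replicate 2 then replicate 1. The 93-nucleotide exon is filled in every Mapt transcript drawn and in 1 of the Map2 transcripts drawn, and the 3741-nucleotide exon in 1.

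Map4 TPM was divided among 4 transcripts, against 17 in M21. All 4 have other lengths in M21 than in the annotation the authors used, so their structures here are those of later versions. ENSMUST00000169851, whose coding sequence is 297 nucleotides, had 39.57 TPM in replicate 2 and 40.42 TPM in replicate 1, an isoform percent of 37.91 and 39.60. It ends before the repeats, so it lacks the microtubule-binding end. ENSMUST00000164930 had 30.51 TPM in replicate 2 and 30.75 TPM in replicate 1. ENSMUST00000165876, with 3372 coding nucleotides, had 28.61 TPM in replicate 2 and 26.10 TPM in replicate 1. ENSMUST00000035055 had 5.69 and 4.79 TPM in the same order, with a posterior SD of 41.1% and 44.8% of its count, and is uncertain. An exon of 114 nucleotides next to the repeat exon (chromosome 9, 110071026 to 110071139) was held by 52.9% of the spanning TPM in replicate 2 and 50.1% in replicate 1, a mean of 51.5 ± 1.99%.

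Doublecortin and its relative DCLK1 bind microtubules through a tandem doublecortin domain, and loss of doublecortin in humans disturbs the migration of cortical neurons. Dcx (ENSMUSG00000031285.10, chromosome X, 143855842 to 143933311) had 240.48 TPM from 19203 reads in replicate 2 and 224.68 TPM from 28253 reads in replicate 1, a mean of 233 ± 11.2 TPM and rank 564. Dclk1 (ENSMUSG00000027797.11, chromosome 3, 55242364 to 55539068) had 105.44 TPM from 10214 reads in replicate 2 and 94.87 TPM from 14593 reads in replicate 1, a mean of 100 ± 7.47 TPM and rank 1489. Dcx exceeded Dclk1 by 2.28-fold in replicate 2 and 2.37-fold in replicate 1.

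Dclk1 makes proteins with the doublecortin part, with a serine/threonine kinase part, or with both. The transcript for the doublecortin part alone, ENSMUST00000167204 (1089 coding nucleotides), had 53.79 TPM in replicate 2 and 45.82 TPM in replicate 1, or 51.0% and 48.3% of the gene, a mean of 49.7 ± 1.92% (SD, n = 2). The transcript for both parts, ENSMUST00000054237 (2268 coding nucleotides), had 44.13 TPM in replicate 2 and 41.56 TPM in replicate 1, or 41.9% and 43.8%, a mean of 42.8 ± 1.38%. The transcript for the kinase part alone, ENSMUST00000070418 (1266 coding nucleotides), had 7.51 TPM in replicate 2 and 7.49 TPM in replicate 1, or 7.12% and 7.90%, a mean of 7.51 ± 0.546%. M21 holds 15 Dclk1 transcripts against these 3, so the shares depend on the annotation that was quantified. Of the 3, the kinase-only form was the lowest in both libraries. The other 2 forms did not keep their order when estimated reads stood in for TPM: the form with both parts then held a mean of 48.9% and the doublecortin-only form 43.4%. Their annotated lengths are 7847 and 6026 nucleotides.

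Dcx had 2 main transcripts. ENSMUST00000112851 (1095 coding nucleotides) had 121.84 TPM in replicate 2 and 108.24 TPM in replicate 1, an isoform percent of 50.67 and 48.18. ENSMUST00000033642 (1098 coding nucleotides) had 87.71 TPM in replicate 2 and 83.67 TPM in replicate 1, an isoform percent of 36.47 and 37.24. They differ in the length of a coding exon, 95 against 98 nucleotides, and in the annotated 3′ untranslated region, 2840 against 7709 nucleotides. The 98-nucleotide form (chromosome X, 143870607 to 143870704) was held by 43.8% of the spanning TPM in replicate 2 and 44.6% in replicate 1. The mean was 44.2 ± 0.578%. This share also counts the retained-intron transcript ENSMUST00000139920, which covers the exon. By estimated reads ENSMUST00000033642 led, with 11281.8 in replicate 2 and 16981.7 in replicate 1, against 6977.58 and 9780.63 for ENSMUST00000112851. A further form, ENSMUST00000112856, had 12.21 TPM in replicate 2 and 14.90 TPM in replicate 1, and the retained-intron transcript ENSMUST00000139920 had 11.74 and 13.12 TPM in the same order.

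**Figure D4:**
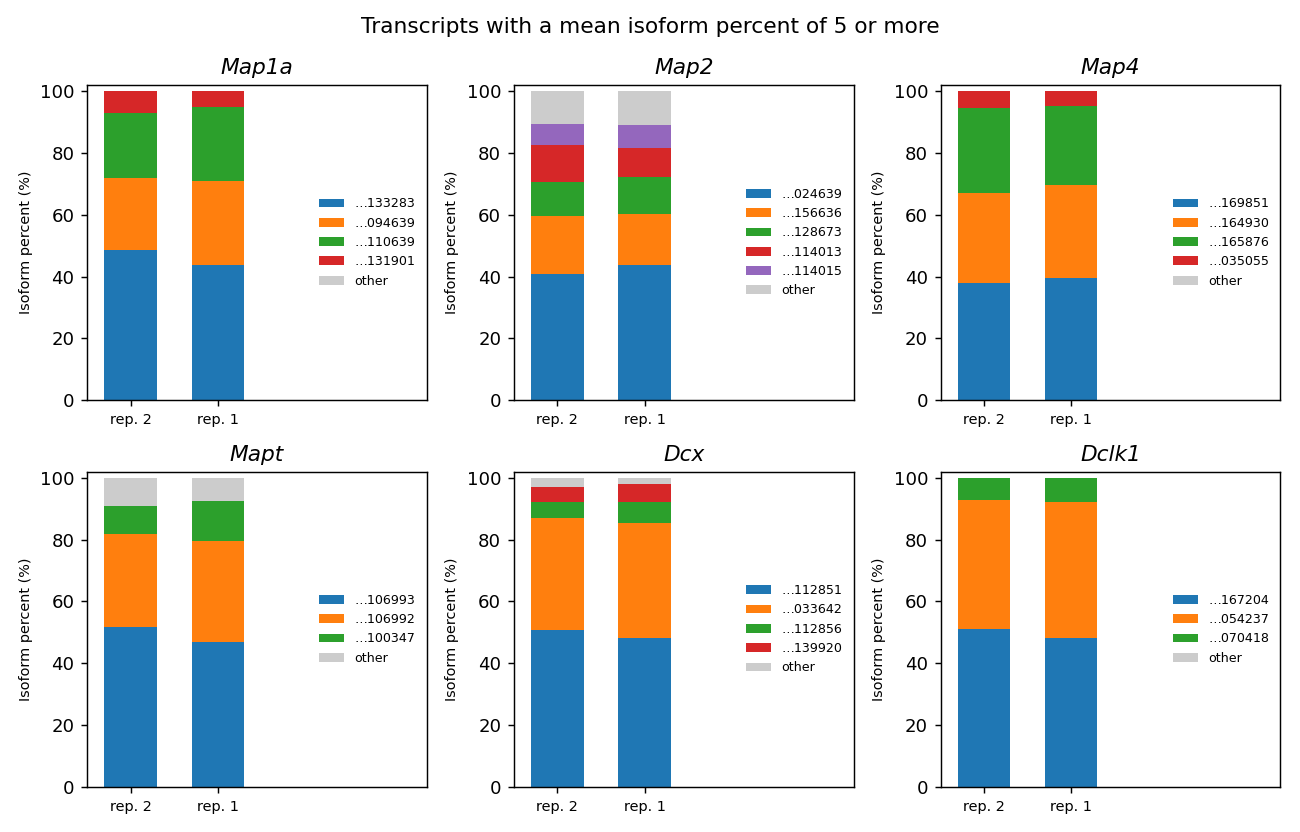
Isoform percent (y axis) of each transcript with a mean of 5 or more in the 6 members with more than 1 such transcript, as stacked bars for replicate 2 (left) and replicate 1 (right). Legends give the last 6 digits of the transcript identifier, and grey is all other transcripts of the gene. The leading transcript is the same in both libraries for each of the 6 genes.

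Across all members 27 of the 64 transcripts had a mean isoform percent of 5 or more, and 7 had 0 TPM in both libraries. Stmn1, Stmn2, Stmn3 and Map1b had 1 such transcript each, and the other members had between 3 and 5.

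Between the 2 libraries 0 of the 10 genes differed by 1.5-fold or more, while 1630 of 17419 genes with a mean of 10 estimated reads or more did (9.36%). Among the 9188 genes with a mean of 10 TPM or more, which is the range of all 10 members, 117 did, or 1.27%, so the members' count lies near that background. The folds were taken as replicate 2 over replicate 1 after adding 0.1 TPM, and no p-value was drawn, with 1 library on each side. The median log2 ratio was 0.06 for the members and 0.05 for all genes. Map1a had the highest, 0.32, and Stmn3 the lowest, -0.19. Past 1.5-fold, 5.66% of all genes were higher in replicate 2 and 3.7% lower. By TPM 8 of the 10 members were higher in replicate 2 and 2, Stmn2 and Stmn3, were lower, but with scaling by trimmed mean of M values or by DESeq2 size factors 4 were higher and 6 lower, so the sign for Stmn1, Map1b, Mapt and Map4 turned with the scaling. Under each of the scalings tried, Map1a, Map2, Dcx and Dclk1 were higher in replicate 2, and Stmn2 and Stmn3 were lower. Of all genes past 1.5-fold, 986 were higher and 644 lower in replicate 2 by TPM (60.5% higher). The numbers were 898 and 752 (54.4% higher) with trimmed mean of M values and with DESeq2 size factors. With TPM rescaled over mouse genes alone they were 985 and 669 (59.6% higher).

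**Figure D5:**
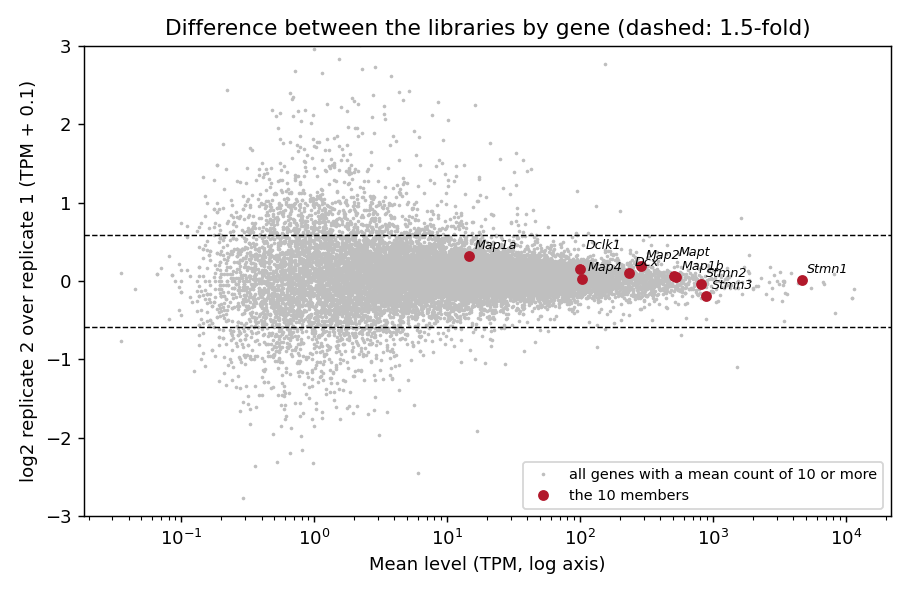
Log2 ratio of replicate 2 over replicate 1 (y axis, TPM + 0.1) against mean level (x axis, TPM, log scale) for all genes with a mean of 10 estimated reads or more (grey) and the 10 members (red). Dashed lines mark 1.5-fold, and 22 genes lie outside the y range. All 10 members lie between the dashed lines, from -0.19 for Stmn3 to 0.32 for Map1a.

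Around these genes stands a set of 41 others that act on microtubules or on the members. All 41 reached 1 TPM in both libraries, 0 of the 41 differed by 1.5-fold, and their median level was 32.3 TPM. The list named other stabilising proteins holds 11 genes (median 39.9 TPM), of which Stmn4 is a stathmin and no stabiliser. Stmn4 had the highest level, 312 ± 27.7 TPM (SD, n = 2). Tppp3, a tubulin polymerization-promoting protein, followed with 203 ± 28.8 TPM, and Map6, which protects microtubules from cold, with 80.9 ± 3.98 TPM. The lowest was Map6d1 with 3.13 ± 0.276 TPM.

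End-binding proteins (11 genes, median 47.7 TPM) track the growing tip or hold an end of the polymer. Mapre1, which encodes EB1, had 305 ± 18.3 TPM and Mapre2, which encodes EB2, 186 ± 3.401 TPM (SD, n = 2 for each). Ckap5, a microtubule polymerase, had 79.6 ± 6.75 TPM, and Clip2 was lowest with 9.16 ± 0.636 TPM. Severing enzymes (6 genes, median 24.4 TPM) were lower and close together, with the katanin genes Katna1 at 30.5 ± 3.96 and Katnal1 at 30.05 ± 5.88 TPM, and Fignl1 lowest at 10.99 ± 1.18 TPM.

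Kinases that phosphorylate the members, with their activators (10 genes, median 31.2 TPM), were led by Gsk3b, a kinase of tau and MAP1B, with 123 ± 6.28 TPM. Cdk5, a kinase of tau and doublecortin, had 54.3 ± 1.33 TPM. Of its activators, Cdk5r1 (p35) had 69.2 ± 4.85 TPM and Cdk5r2 (p39), the lowest of the list, 6.36 ± 0.594 TPM. The genes whose products work with doublecortin in nuclear movement were Ndel1 with 73.6 ± 1.08, Pafah1b1 (LIS1) with 49.995 ± 7.71 and Nde1 with 26.9 ± 2.55 TPM (SD, n = 2 for each), all below Dcx.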

How the data were processed

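Total RNA of E13.5 mouse neural tube was sequenced in 2 libraries, grouped by the replicate number in the labels. The protocol links name a mirVana extraction and a SMARTer Ultra Low RNA kit. The build is mm10 and the annotation GENCODE M4, per the submitters' processing notes. The sources used here name neither aligner nor quantifier, nor how strand was handled. Estimated reads are the deposited expected counts, which need not be whole. The deposited TPM are per length and scaled over all features, spike-ins included (12.6% of the TPM in replicate 2 and 13.03% in replicate 1). The deposited FPKM served as an alternative. The deposited isoform percent is a transcript's share of its gene's TPM, and the deposited posterior SD of the count, per the file headers, was given as a percent of that count.

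Symbols, coordinates and transcript structures came from GENCODE M21, joined on identifiers without version. All 64 member transcripts matched, 58 with the same length, and M21 holds 94 for these genes. An exon's share is the summed TPM of transcripts that hold it over that of transcripts that span it. Sequences were cut from M21 transcripts. The libraries were compared by fold alone, over genes with a mean expected count of 10 or more. SD is over 2 libraries. Computation was done in Python 3.11.15 with pandas 2.3.3, NumPy 2.4.6 and SciPy 1.17.1, and drawing in matplotlib 3.10.9. Scaling alternatives used edgeR 4.0.16 and DESeq2 1.42.0 in R 4.3.3. The named genes are all members, their transcripts with a mean isoform percent of 5 or more, and the 3 highest and the lowest gene of each pathway list; Stmn4 is also set beside the stathmins. ENSMUST00000106989 and ENSMUST00000114018 were named after their values were seen. The members and lists were chosen with earlier results of these data known. A gene that this rule names and an exon sequence are not reported here.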

Additional observations from a re-analysis of the deposited data

How the results depend on the processing

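No paired analysis was possible because there is a single group. The summed level of the members, 8072 TPM, was 5267 in FPKM, 9261 with TPM rescaled over mouse genes alone and 7824 with the posterior mean TPM. In the single libraries it was 8071 to 8074 TPM. These units set another total, and the order of the 10 genes was the same in each. That comparison of orders was added after seeing the data. FPKM and rescaled TPM multiply all genes of a library by 1 factor, so they could not change the order within it. Only the posterior mean TPM could. Estimated reads gave another order, with Map1b (34.5% of the members' reads in replicate 2, 34.0% in replicate 1) above Stmn1 (24.4% and 24.8%). Across the libraries, 2 neighbouring pairs overlapped by TPM and by FPKM, and 1 with rescaled TPM and 1 with the posterior mean TPM. No member passed 1.5-fold under either count scaling or with rescaled TPM; a 2-fold limit or 1 TPM added could not raise a count of 0. Genes past the fold numbered 1630, but 505 at 2-fold, 601 with 1 TPM added, 5855 with no filter on low values, 1243 with a mean of 1 TPM or more, and 1650 under each count scaling. With estimated reads in place of TPM, the share with the large Map2 exon was 19.9% instead of 17.1%, Dclk1 with both parts 48.9% instead of 42.8% and the doublecortin part alone 43.4% instead of 49.7%, since reads weight a transcript by its length. In the single libraries these shares ran from 15.2% to 19.0%, from 41.9% to 43.8% and from 48.3% to 51.0%. The Dclk1 kinase part alone ran from 7.12% to 7.90%. Leaving out 1 of 2 libraries returns the value of the other, so it is no further check. The Mapt repeat exon stayed at 100%, an outcome fixed by the annotation. All 10 members were detected at 10 TPM too. Map1a, at 1167 and 1692 reads, has the least depth, and its noncoding transcripts rest on few reads.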
